A study of Mus musculus with 16 samples.

Results

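The genes examined here hold heart muscle cells together at the intercalated disc, the specialised border where neighbouring cardiomyocytes meet end to end. They are 10 genes fixed by name: the desmosome genes Dsp, Pkp2, Dsg2, Dsc2 and Jup, and Cdh2, Ctnna1, Ctnna3, Tjp1 and Vcl, whose products build or brace the adherens junction. All 10 were found among the 56953 genes of the count table and all 10 were among the 18662 genes with enough counts to be tested. Of the splicing events listed in the 3 deposited rMATS tables, 32 distinct events lay in 9 of the 10 genes, and Vcl had none.

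Left ventricles of 16 mice of the Bl6J background, males and females, were profiled by RNA-seq after poly(A) selection, in 4 groups of 4 mice. WT mice and mice homozygous for P635L in RBM20, a splicing regulator of heart muscle, were injected with 1e12 viral genomes of AAV9 through the tail vein when 4 weeks old and were examined 12 weeks later, when 16 weeks old. WT Tnpo3 and P635L Tnpo3 mice received a vector with the cDNA of Tnpo3, a nuclear import receptor. WT Ctr and P635L Ctr mice received pCAG-iCre-T2A-eGFP, so the control hearts were not untreated: they were given Cre recombinase and green fluorescent protein, under a CAG promoter by the name of the construct. The promoter of the Tnpo3 vector is not stated in the sources used here. No group without virus was analysed here. Which mice were male is not stated per library.

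At the desmosome, the cadherins desmoglein and desmocollin reach across the gap between cells, the armadillo proteins plakoglobin and plakophilin bind their tails, and desmoplakin ties that complex to desmin filaments. At the adherens junction, N-cadherin binds its partner on the next cell, and alpha-catenins, vinculin and the scaffold ZO-1 connect it with actin. In cardiomyocytes both systems merge into a mixed junction, and loss-of-function variants of the desmosome genes are a known cause of arrhythmogenic cardiomyopathy. RBM20 is known for its control of exon use in titin and other transcripts of the sarcomere and of calcium handling.

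Library totals ran from 28493249 to 85922669 counts. Tnpo3 was at 41.6 to 49.4 counts per 1000000 library counts scaled with TMM factors (CPM) in the 8 libraries given the control virus and at 231 to 723 CPM in the 8 given the Tnpo3 virus, so the labels held for the vector. The cardiomyocyte markers summed to at least 55966 CPM in every library, and none of the 8 was at 0. A single gene, ENSMUSG00000119584, took 19.96% of the counts of WT Ctr replicate 2, 21.2% of WT Ctr replicate 4 and 22.7% of WT Tnpo3 replicate 4, against 0.703% to 5.30% elsewhere. Xist was above the Y-linked genes in 1 WT Ctr library (replicate 4) and in replicates 2 and 4 of WT Tnpo3, and in no P635L library. Both sets of 3 libraries are WT only, so results were also computed without each set.

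The mutation went with a change of 3 of the 10 genes, in both directions. In P635L Ctr against WT Ctr, Pkp2 rose, and Dsc2 and Dsp fell, at an adjusted p under 0.05 (edgeR quasi-likelihood test, Benjamini-Hochberg over all genes tested); in this comparison 14.2% of all genes tested were called, 7.07% as higher and 7.14% as lower. In 3 of the 10 genes (Pkp2, Dsc2 and Ctnna1) the libraries of both groups did not overlap, beside 19.2% of all genes, and 4 had an unadjusted p under 0.05, beside 28.1%. The median log2 fold change of the 10 genes was -0.15, beside -0.05 over all genes tested. In P635L Tnpo3 against P635L Ctr, Pkp2 alone of the 10 was called, and it fell; the share of all genes called was 3.88%, with 1.63% higher and 2.25% lower. Groups did not overlap for 4 of the 10 genes (Pkp2, Dsg2, Cdh2 and Ctnna1), beside 20.4% of all genes, and an unadjusted p was under 0.05 for 4, beside 18.4%. In that comparison 9 of the 10 genes had a negative fold change, with a median of -0.24 on the log2 scale, beside 0.0067 over all genes tested. Both of these comparisons share the P635L Ctr libraries. In P635L Tnpo3 against WT Ctr, Dsp alone was called, and it fell, where 3.07% of all genes tested were called. All 10 genes had a negative fold change there, with a median of -0.33 on the log2 scale, beside -0.05 over all genes tested. An edgeR unadjusted p was under 0.05 for 6 of the 10, beside 18.3% of all genes. The 10 genes were measured in the same libraries and are not independent.

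**Figure D1:**
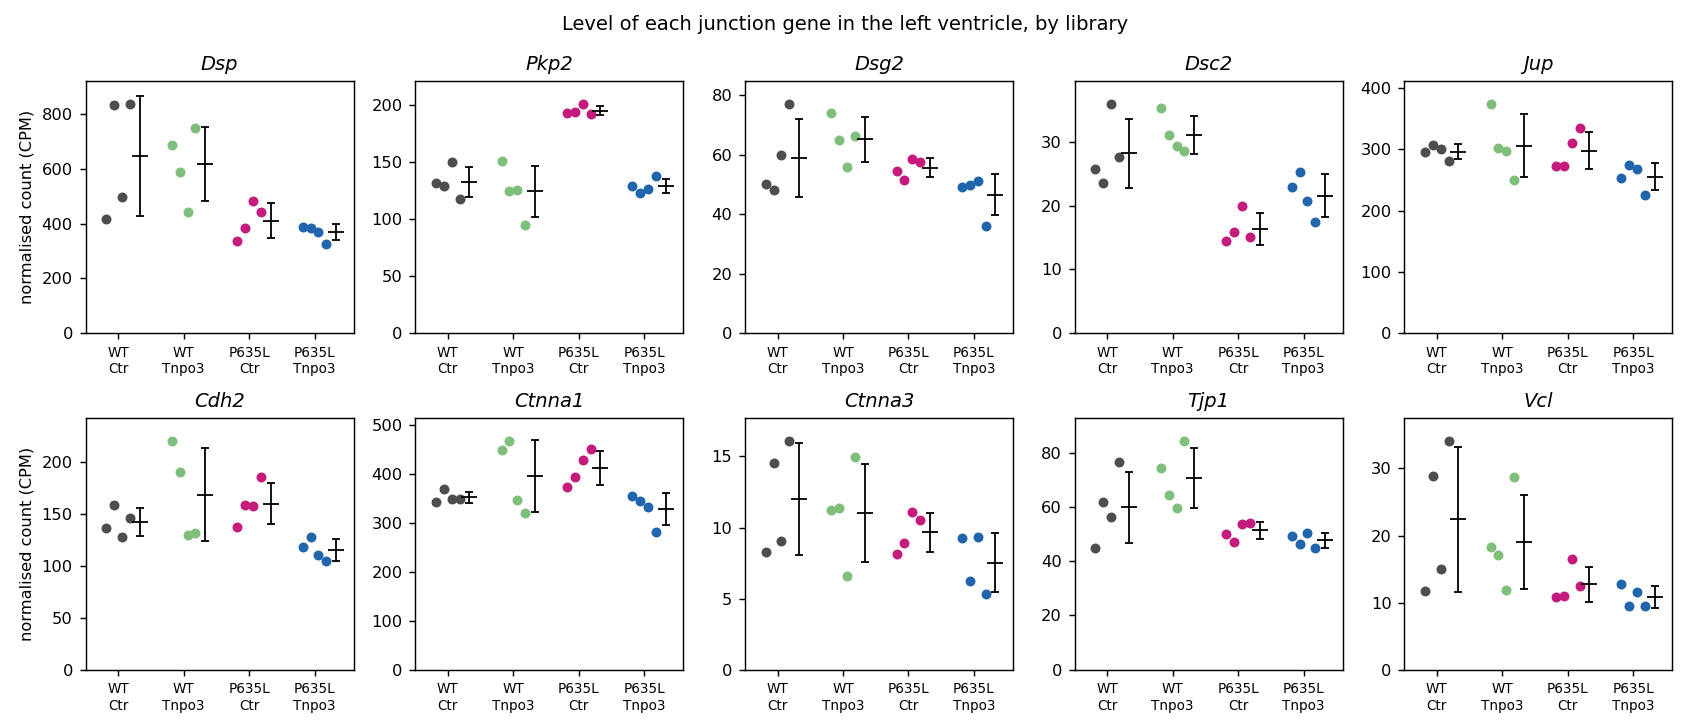
Normalised count (CPM, vertical axes from 0) of the 10 junction genes in each of the 16 libraries, by group; the horizontal mark and bar to the right of each group are the mean and SD of 4 libraries. Pkp2 in P635L Ctr (192 to 201 CPM) lies above every other library, Dsc2 in P635L Ctr (14.4 to 19.96 CPM) lies below every WT library, and Dsp and Vcl are most spread in the WT groups.

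**Figure D2:**
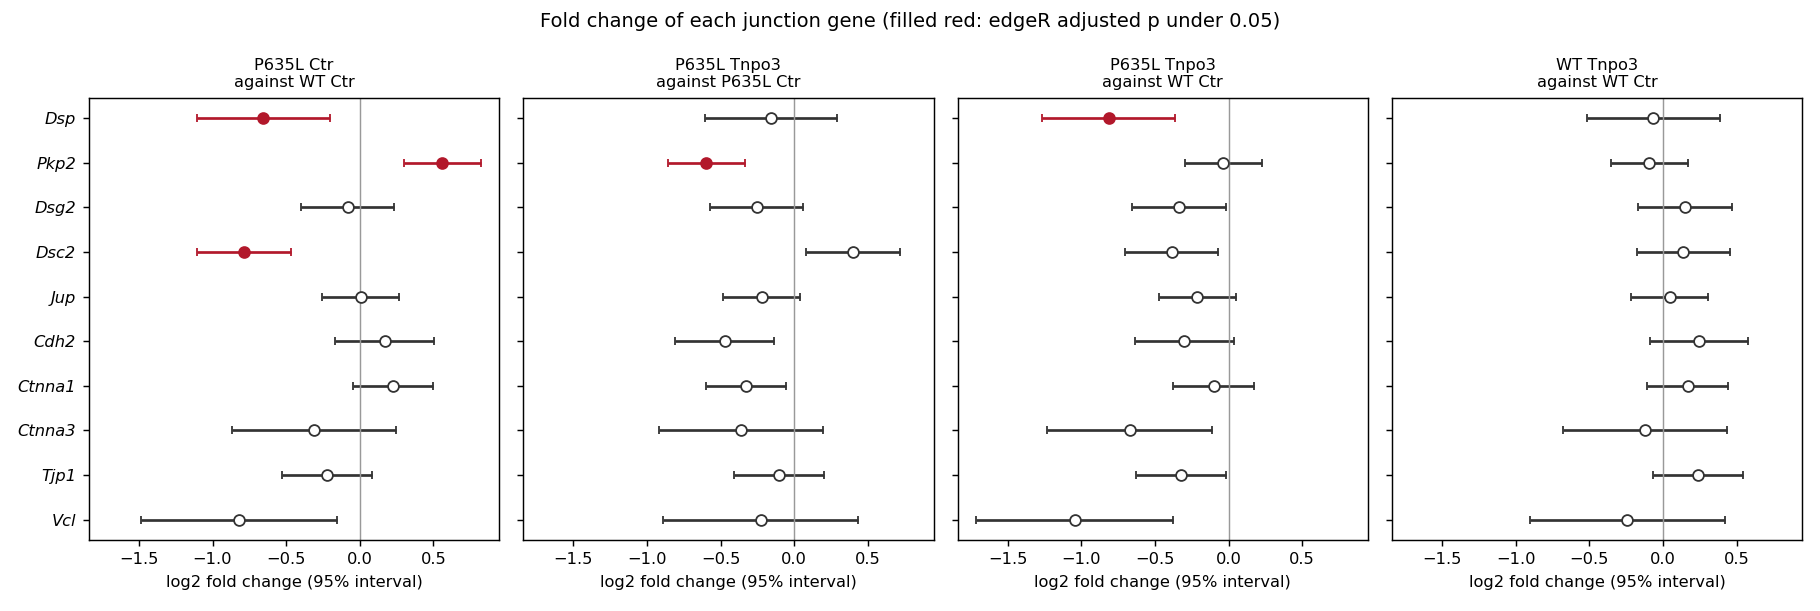
Log2 fold change of each gene with its 95% interval in 4 comparisons between groups of 4 libraries; filled red points passed the edgeR adjusted p of 0.05. Pkp2 sits at 0.56 with the mutation and at -0.60 with the Tnpo3 virus in P635L hearts, and no gene passed in WT Tnpo3 against WT Ctr.

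Plakophilin 2, the product of Pkp2 (ENSMUSG00000041957, chromosome 16, 16031182 to 16090576), binds the cadherin tails and recruits desmoplakin to the desmosome. Its level was 132, 129, 149.9 and 118 CPM in WT Ctr, 150.5, 125, 125 and 95.01 CPM in WT Tnpo3, 193, 194, 201 and 192 CPM in P635L Ctr, and 129, 123, 126 and 137 CPM in P635L Tnpo3 (replicates 1 to 4). The 4 P635L Ctr libraries were the highest of all 16 and lay close together, and the 3 other groups overlapped. Means were 132 ± 13.4 CPM for WT Ctr and 195 ± 4.03 CPM for P635L Ctr (SD, n = 4), which is 1.47-fold or 0.56 on the log2 scale (SE 0.12, 95% interval 0.30 to 0.82, edgeR adjusted p = 0.00373). With the Tnpo3 virus in P635L hearts it fell to 129 ± 6.11 CPM (SD, n = 4), or by 0.60 on the log2 scale (SE 0.12, edgeR adjusted p = 0.00930). Each of these comparisons had an exact permutation p of 0.0286 (two-sided), the smallest that 4 against 4 libraries allow. P635L Tnpo3 against WT Ctr stood at -0.04 on the log2 scale (95% interval -0.30 to 0.22, edgeR adjusted p = 0.901). Both calls held in all 27 alternatives to the main processing, with log2 fold changes from 0.50 to 0.63 for the mutation and from -0.64 to -0.56 for the virus in P635L hearts. In WT hearts the virus gave -0.09 (95% interval -0.35 to 0.17), and the virus effect differed between genotypes by -0.50 (SE 0.17, edgeR unadjusted p = 0.00791, adjusted p = 0.222), which did not pass.

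The fibroblast markers that were called changed in the same directions as Pkp2. The summed levels of P635L Ctr overlapped those of WT Ctr and P635L Tnpo3, and lay above those of WT Tnpo3. Of 7 fibroblast markers, 5 rose in P635L Ctr against WT Ctr, where 7.07% of all genes tested were called as higher. In P635L Tnpo3 against P635L Ctr 4 of the 7 fell, where 2.25% of all genes tested were called as lower. Summed over the 7 genes, WT Ctr libraries held 943 to 1533 CPM and WT Tnpo3 libraries 1128 to 1219 CPM. P635L Ctr libraries held 1379 to 2053 CPM and P635L Tnpo3 libraries 1022 to 1426 CPM, with none at 0. Whether the fibroblast share played a part in the Pkp2 result was not tested, and in bulk tissue fewer cells of a type cannot be told apart from less RNA per cell.

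Plakoglobin, encoded by Jup (ENSMUSG00000001552, chromosome 11, 100259784 to 100288589), is the other armadillo protein of the desmosome and a close relative of beta-catenin. It was among the steadiest of the 10 genes with the mutation: WT Ctr averaged 296 ± 11.7 CPM and P635L Ctr 298 ± 30.4 CPM (SD, n = 4). The log2 fold change was 0.0056 (95% interval -0.26 to 0.27, edgeR adjusted p = 0.982), and the sign of so small a value turned in 3 of the 16 fits that left out a library. P635L Tnpo3 stood at 256 ± 21.5 CPM (SD, n = 4), a log2 fold change of -0.22 from P635L Ctr (95% interval -0.48 to 0.04, edgeR adjusted p = 0.349).

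The ratio of Pkp2 to Jup within a library, per kilobase of exon, does not depend on how libraries are scaled. This pair, and the pair of cadherins below, were chosen after their values were seen and carry no test. Pkp2 over Jup was 0.503 to 0.598 in WT Ctr, 0.456 to 0.506 in WT Tnpo3, 0.689 to 0.853 in P635L Ctr and 0.536 to 0.728 in P635L Tnpo3. The P635L Ctr libraries lay above all WT libraries, and P635L Tnpo3 replicate 4, at 0.728, lay within the P635L Ctr range.

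Desmocollin 2, encoded by Dsc2 (ENSMUSG00000024331, chromosome 18, 20163690 to 20192611), is the desmosomal cadherin that pairs with desmoglein 2. It was at 25.7, 23.5, 35.9 and 27.6 CPM in WT Ctr, 35.3, 31.0, 29.3 and 28.5 CPM in WT Tnpo3, 14.4, 15.9, 19.96 and 15.1 CPM in P635L Ctr, and 22.9, 25.2, 20.7 and 17.4 CPM in P635L Tnpo3. Every P635L Ctr library was below every WT library, while P635L Tnpo3 overlapped both P635L Ctr and WT Ctr. Dsc2 fell with the mutation by 0.79 on the log2 scale (SE 0.15, edgeR adjusted p = 0.00127), from 28.2 ± 5.44 to 16.3 ± 2.48 CPM (SD, n = 4). That call held in all 27 alternatives, between -0.89 and -0.64. The virus in P635L hearts gave 21.6 ± 3.35 CPM (SD, n = 4) and a log2 fold change of 0.40 (95% interval 0.08 to 0.72, edgeR unadjusted p = 0.0136, adjusted p = 0.145), which did not pass. Against WT Ctr, P635L Tnpo3 stood at -0.39 (SE 0.15, edgeR adjusted p = 0.163).

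Desmoglein 2, encoded by Dsg2 (ENSMUSG00000044393, chromosome 18, 20691131 to 20737578), was not called with the mutation under the control virus, where its partner fell. Whether Dsg2 and Dsc2 differed in their response was not tested, and under the Tnpo3 virus both were lower in P635L hearts (-0.49 and -0.53). WT Ctr averaged 58.9 ± 13.2 CPM and P635L Ctr 55.6 ± 3.17 CPM (SD, n = 4), a log2 difference of -0.08 (95% interval -0.40 to 0.23, edgeR adjusted p = 0.753), whose sign turned without WT Ctr replicate 4 (0.08), without the 3 rich libraries (0.05) and without the 3 libraries with high Xist (0.11). P635L Tnpo3 was at 49.3, 49.7, 51.2 and 36.2 CPM and did not overlap P635L Ctr (51.7 to 58.7 CPM). The log2 fold change was -0.25 (SE 0.15, edgeR adjusted p = 0.372). In the same library, Dsc2 over Dsg2 per kilobase was 0.560 to 0.941 in WT Ctr, 0.674 to 0.823 in WT Tnpo3, 0.412 to 0.532 in P635L Ctr and 0.633 to 0.795 in P635L Tnpo3. P635L Ctr thus held the 4 lowest ratios of the 16 libraries, and P635L Tnpo3 lay within the range of WT Ctr.

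**Figure D3:**
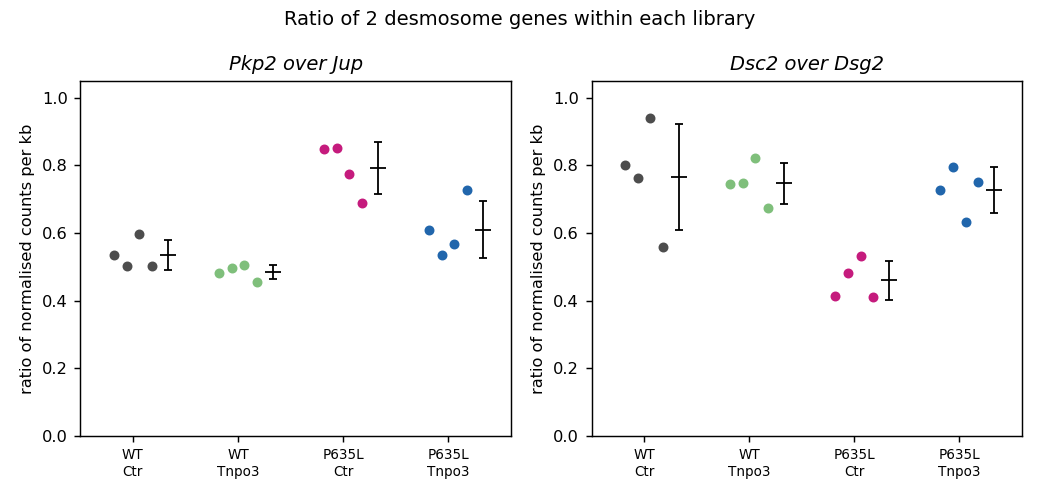
Ratio of Pkp2 to Jup and of Dsc2 to Dsg2 (normalised counts per kb of exon, vertical axes from 0) in each library; the mark and bar at the right of each group are the mean and SD of 4 libraries. P635L Ctr holds the 3 highest Pkp2 to Jup ratios and its lowest (0.689) lies below 1 P635L Tnpo3 library (0.728), and P635L Ctr holds the 4 lowest Dsc2 to Dsg2 ratios (0.412 to 0.532).

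Desmoplakin, encoded by Dsp (ENSMUSG00000054889, chromosome 13, 38335270 to 38382553), is the plakin that anchors desmin filaments. Per kilobase of exon, Dsp had the highest mean of the 10 genes in both WT groups, but its libraries were widely spread. It lay below Ctnna1 in replicates 1 and 3 of WT Ctr (43.2 and 51.6 against 53.5 and 54.2 CPM per kb). The same held for replicates 2 and 3 of WT Tnpo3 (61.0 and 45.9 against 72.8 and 53.9 CPM per kb). Dsp was at 417, 833, 498 and 837 CPM in WT Ctr, 687, 589.5, 443 and 750.4 CPM in WT Tnpo3, 336, 382, 481 and 441 CPM in P635L Ctr, and 388, 385, 371 and 325 CPM in P635L Tnpo3. WT Ctr replicates 2 and 4 were about level with each other and far above replicates 1 and 3, which overlapped P635L Ctr. Dsp fell in P635L Ctr against WT Ctr by 0.66 on the log2 scale (SE 0.21, edgeR adjusted p = 0.0411). It also fell in P635L Tnpo3 against WT Ctr by 0.81 (SE 0.21, edgeR adjusted p = 0.0397), where 3.07% of all genes tested were called, 1.58% of all genes as lower, and where the groups did not overlap, as for Jup (2 of the 10 genes, beside 11.7% of all genes). With the virus in P635L hearts the log2 fold change was -0.16 (95% interval -0.61 to 0.29, edgeR adjusted p = 0.753).

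The Dsp calls rested on few libraries. Without the 3 libraries rich in ENSMUSG00000119584 the log2 fold change with the mutation was -0.12 (edgeR adjusted p = 0.699), and that of P635L Tnpo3 against WT Ctr was -0.28 (edgeR adjusted p = 0.466). Leaving out WT Ctr replicate 2 alone gave -0.49 and -0.65 (edgeR adjusted p = 0.157 and 0.156), and leaving out WT Ctr replicate 4 alone gave -0.51 and -0.67 (edgeR adjusted p = 0.125 and 0.107). Among the 27 alternatives the first Dsp call held in 11 (adjusted p from 0.00772 to 0.699) and the second in 9 (0.00642 to 0.466). The part of the ENSMUSG00000119584 share in these differences was not tested beyond these fits.

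Vinculin, encoded by Vcl (ENSMUSG00000021823, chromosome 14, 20979466 to 21083744), links alpha-catenin to actin under tension. Its pattern over the libraries was the closest to that of Dsp among the other 9 genes, with Pearson r = 0.96 on log2 CPM over the 16 libraries, a description that the shared libraries and depth affect. Vcl was at 11.8, 28.8, 14.9 and 34.1 CPM in WT Ctr, 18.3, 17.1, 11.9 and 28.7 CPM in WT Tnpo3, 10.9, 11.01, 16.5 and 12.5 CPM in P635L Ctr, and 12.8, 9.49, 11.6 and 9.52 CPM in P635L Tnpo3. The highest 3 values were those of the 3 libraries rich in ENSMUSG00000119584, and the remaining WT libraries overlapped the P635L libraries. The log2 fold change was -0.82 in P635L Ctr (SE 0.30, edgeR adjusted p = 0.0859) and -1.05 in P635L Tnpo3 (SE 0.31, edgeR adjusted p = 0.0782), both against WT Ctr. Neither passed, and without the 3 rich libraries they were -0.04 and -0.26. In the authors' deposited table, Vcl stands at an adjusted p of 0.0460 and 0.0163 in these comparisons. Of the exonic bases of Vcl, 2090 (25.5%) lie over exons of Ap3m1 on the other strand, and whether counting used strand is not given in the sources used here, so the reads of both genes cannot be told apart there.

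**Figure D4:**
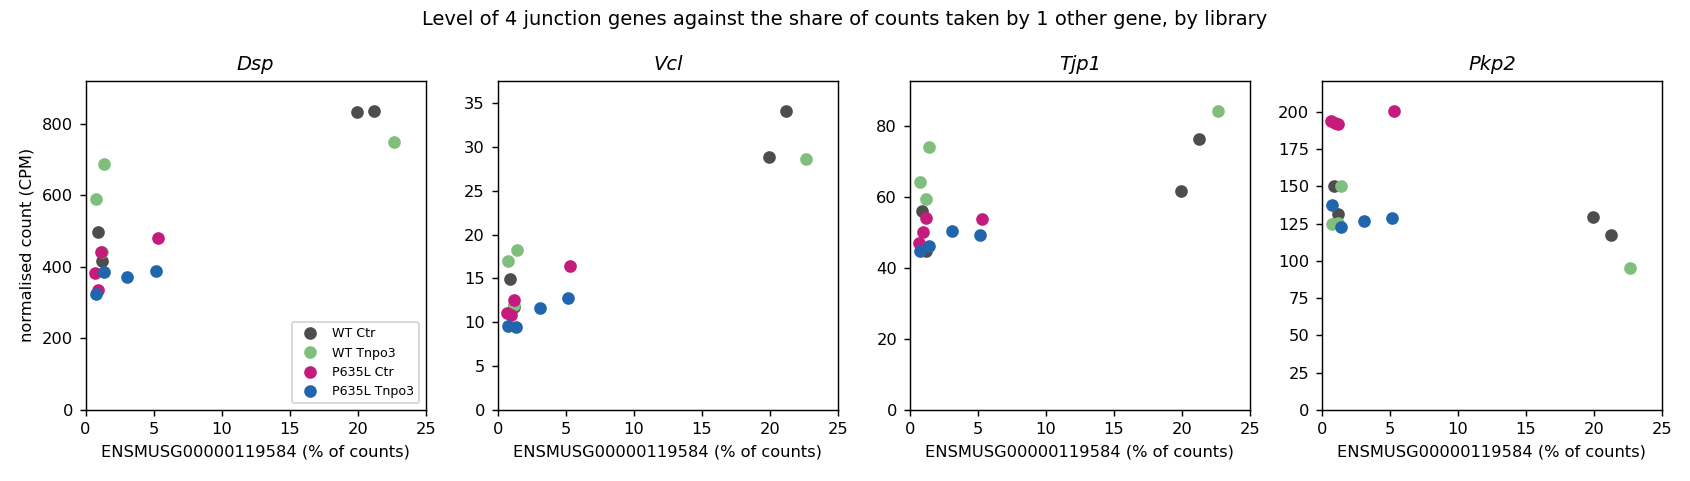
Normalised count (CPM, vertical axes from 0) of Dsp, Vcl, Tjp1 and Pkp2 against the percent of all counts taken by ENSMUSG00000119584, 1 point per library, coloured by group. The 3 libraries at 19.96% or more hold the highest Vcl values (28.7 to 34.1 CPM) and, for Dsp, 750.4 to 837 CPM, while Pkp2 separates P635L Ctr from the rest at low shares.

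The remaining genes belong to the adherens junction. N-cadherin, encoded by Cdh2 (ENSMUSG00000024304, chromosome 18, 16721934 to 16942303), is the classical cadherin of cardiomyocytes. It was at 136, 158, 127 and 146 CPM in WT Ctr, 220, 191, 130 and 132 CPM in WT Tnpo3, 137, 158, 158 and 185 CPM in P635L Ctr, and 118, 128, 110 and 104 CPM in P635L Tnpo3. All P635L Tnpo3 libraries were below all P635L Ctr libraries (exact permutation p = 0.0286, two-sided). The log2 fold change was -0.47 (SE 0.15, edgeR unadjusted p = 0.00677, adjusted p = 0.0990), which did not pass. It passed in 3 of the 27 alternatives, and in 0 of the 16 fits that left out a library. It passed where only the 8 libraries of these 2 groups entered the fit (edgeR adjusted p = 0.00563). It also passed without the 3 rich libraries (edgeR adjusted p = 0.0495) and with a transcript length covariate (0.0419). In WT hearts the virus gave 0.24 (95% interval -0.09 to 0.58), and the interaction was -0.72 (SE 0.22, edgeR unadjusted p = 0.00409, adjusted p = 0.177), the most negative of the 10 genes.

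Alpha-E-catenin (Ctnna1, ENSMUSG00000037815, chromosome 18, 35251912 to 35387832) and alpha-T-catenin (Ctnna3, ENSMUSG00000060843, chromosome 10, 63265877 to 64839446) join N-cadherin to actin, the second mainly in heart and testis. Average Ctnna1 levels were 352 ± 11.1 CPM in WT Ctr, 396 ± 73.5 in WT Tnpo3, 412 ± 34.5 in P635L Ctr and 328 ± 32.3 in P635L Tnpo3 (SD, n = 4 each). The P635L Ctr libraries (374 to 451 CPM) did not overlap either WT Ctr (344 to 368 CPM) or P635L Tnpo3 (282 to 354 CPM). The fold changes, 0.23 with the mutation (SE 0.13, edgeR adjusted p = 0.251) and -0.33 with the virus in P635L hearts (SE 0.13, edgeR adjusted p = 0.166), did not pass. Cdh2 and Ctnna1 were each other's closest match among the 10 genes, with r = 0.90 over the 16 libraries. Ctnna3 was the lowest of the 10 genes per kilobase in every group, at 1.66 ± 0.543 CPM per kb in WT Ctr and 1.04 ± 0.287 CPM per kb in P635L Tnpo3 (SD, n = 4 each), and passed in no comparison.

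ZO-1, encoded by Tjp1 (ENSMUSG00000030516, chromosome 7, 64945913 to 65177529), is a scaffold that binds alpha-catenin, actin and, in the heart, connexin 43. Tjp1 was at 44.8, 61.6, 56.1 and 76.5 CPM in WT Ctr, 74.2, 64.4, 59.4 and 84.4 CPM in WT Tnpo3, 50.1, 47.2, 53.8 and 54.1 CPM in P635L Ctr, and 49.4, 46.1, 50.5 and 44.8 CPM in P635L Tnpo3. The P635L groups were the less spread, and neither reached the WT Tnpo3 range. With the mutation under the control virus the log2 fold change was -0.22 (95% interval -0.53 to 0.08, edgeR adjusted p = 0.321).

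Between the genotypes under the Tnpo3 virus, Tjp1 was the only one of the 10 genes to pass. It was lower in P635L Tnpo3 than in WT Tnpo3 with a log2 difference of -0.57 (SE 0.14, edgeR adjusted p = 0.0324), and 3.72% of all genes tested were called, 1.72% as higher and 2.0% as lower. Dsp (-0.75), Dsc2 (-0.53), Cdh2 (-0.55) and Dsg2 (-0.49) had adjusted p values of 0.0521, 0.0520, 0.0546 and 0.0693 in the same edgeR fit, and all 5 genes had groups that did not overlap, beside 11.5% of all genes tested. At an unadjusted p under 0.05, 9 of the 10 genes passed, beside 20.1% of all genes tested; these 9 were measured in the same 8 libraries and are not independent. The median of the 10 genes was -0.54 on the log2 scale, beside -0.02 over all genes tested. The count of genes called was not stable: without the 3 rich libraries it was 5 (Dsp, Dsg2, Dsc2, Cdh2 and Tjp1), and without the 3 libraries with high Xist it was 0. Leaving out any 1 of the P635L Tnpo3 libraries, WT Tnpo3 replicate 1 or 2, or P635L Ctr replicate 1 or 2 also gave 0, and leaving out WT Tnpo3 replicate 3 gave 5. Among the 27 alternatives the Tjp1 call held in 16 (adjusted p from 0.00527 to 0.114).

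In WT hearts none of the 10 genes changed with the Tnpo3 virus, and 0.00536% of all genes tested were called. By edgeR 0 of the 10 had an unadjusted p under 0.05, beside 3.2% of all genes, DESeq2 called 0 of the 10 as well, and 0 of the 10 had groups that did not overlap, beside 1.09% of all genes. The fold changes lay between -0.24 (Vcl) and 0.24 (Cdh2) on the log2 scale. The widest interval, that of Vcl, ran from -0.90 to 0.42, and that of Ctnna3 from -0.68 to 0.43. A fall of 1.5-fold in either gene thus lay within its interval at this depth and spread. The interaction of virus and genotype called 0 of the 10 genes, with 0.504% of all genes tested called. Cdh2, Pkp2 and Ctnna1 (-0.50, edgeR unadjusted p = 0.0120) were under an unadjusted 0.05, beside 12.4% of all genes tested.

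Ordered by level per kilobase of exon, the 10 genes kept roughly the same places in the 4 groups. In WT Ctr the order ran from Dsp (66.9 ± 22.8 CPM per kb), Ctnna1 (54.8 ± 1.73), Jup (46.1 ± 1.82), Pkp2 (24.6 ± 2.50) and Cdh2 (17.6 ± 1.64) to Tjp1 (7.65 ± 1.69), Dsg2 (7.12 ± 1.60), Dsc2 (5.34 ± 1.03), Vcl (2.74 ± 1.32) and Ctnna3 (1.66 ± 0.543), as SD with n = 4. Neighbours whose libraries overlapped there were Dsp with Ctnna1, Tjp1 with Dsg2, Dsg2 with Dsc2, and Vcl with Ctnna3. The place of Vcl is uncertain, as 25.5% of its exonic bases lie over exons of Ap3m1. In P635L Ctr, Ctnna1 came first (64.1 ± 5.37 CPM per kb) and Dsp (42.4 ± 6.58) overlapped both Jup (46.2 ± 4.72) and Pkp2 (36.3 ± 0.751). In both WT groups Dsp overlapped Jup as well, but not Pkp2. In P635L Tnpo3, Pkp2 lay below Dsp with no overlap (24.0 ± 1.14 against 38.0 ± 3.00 CPM per kb). The genes whose log2 CPM over the 16 libraries was closest to the mean of the 10 were Cox15 (r = 0.94), Papolg, Fto, Prkaca and Xpo7.

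Further genes of the junction were examined from lists fixed by name. The lists' median log2 fold changes with the mutation were 0.07, 0.17, 0.08 and 0.10, in the order below, beside -0.05 over all genes, and with the virus in P635L hearts -0.14, -0.07, -0.12 and -0.08, beside 0.0067. Of 16 tested genes of other junction proteins (23 listed), Ctnnb1 rose and Ppl fell in P635L Ctr against WT Ctr. There 14.2% of all genes tested were called, 7.07% as higher and 7.14% as lower. In P635L Tnpo3 against P635L Ctr, Ppl rose and Ctnnb1 and Cdh11 fell. There 3.88% of all genes tested were called, 1.63% as higher and 2.25% as lower. Ctnnb1 encodes beta-catenin, which binds the N-cadherin tail as plakoglobin also can. Its libraries ranged from 201 to 236 CPM for WT Ctr, 264 to 297 CPM for P635L Ctr and 181 to 207 CPM for P635L Tnpo3. P635L Ctr was thus above WT Ctr and P635L Tnpo3 with no overlap, as it was for Pkp2 against these groups. The log2 fold changes of Ctnnb1 were 0.38 (edgeR adjusted p = 0.0337) with the mutation and -0.56 (edgeR adjusted p = 0.0112) with the virus in P635L hearts. Ppl, which encodes the plakin periplakin, averaged 13.01 ± 3.93 CPM for WT Ctr, 5.20 ± 1.65 CPM for P635L Ctr and 15.3 ± 5.09 CPM for P635L Tnpo3 (SD, n = 4). The mesothelial marker Msln also rose with the virus in P635L hearts, by 5.05 on the log2 scale (edgeR adjusted p = 0.00978), and the other 3 tested mesothelial markers had positive fold changes that did not pass (median of the 4 tested 1.91). With the mutation all 4 had negative fold changes (median -1.38), and Wt1 was called lower, in the comparison in which Ppl, Dsc2 and Dsp fell. The summed level of 7 such markers was 7.31 to 9.28 CPM in WT Ctr, 4.597 to 5.91 CPM in P635L Ctr and 4.83 to 9.18 CPM in P635L Tnpo3. The sums of the P635L groups overlapped, and the Msln fold change rests on low counts. None of the 7 markers was at 0 in every library of any of these groups. Their part in the Ppl, Dsc2 and Dsp results was not tested.

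Among 21 other proteins of the intercalated disc, 7 changed with the mutation, 3 higher and 4 lower, where 14.2% of all genes tested were called. With the virus in P635L hearts 3 changed, 0 higher and 3 lower, where 3.88% of all genes tested were called. Sorbs2, an adaptor between actin and membrane complexes, rose by 0.87 on the log2 scale (edgeR adjusted p = 4.94e-05) and fell by 0.65 (edgeR adjusted p = 0.00382), its libraries ranging over 213 to 260.5 CPM for WT Ctr, 421 to 460.1 CPM for P635L Ctr and 257 to 303 CPM for P635L Tnpo3. Xirp2, an actin-binding Xin repeat protein, rose by 0.82 (edgeR adjusted p = 0.00839), and Popdc2, a membrane protein of the Popeye family, fell with the mutation by 0.87 (edgeR adjusted p = 0.00183). Nrap, which sits where myofibrils end at the junction, rose with the mutation and fell by 0.78 with the virus (edgeR adjusted p = 0.00151), and Xirp1 fell by 0.72 (edgeR adjusted p = 0.0262). Of 21 linkers of actin and focal adhesions, Enah and Sorbs3 rose with the mutation, and Enah and Flnc fell with the virus in P635L hearts. Of 13 tested genes of junction signalling, Ccn1, Ccn2 and Ankrd1 rose with the mutation, and none was called with the virus in P635L hearts. Of all genes tested, 7.07% were called as higher with the mutation and 2.25% as lower with the virus in P635L hearts. Of the 8 cardiomyocyte markers 3 (Myh6, Tnni3 and Myl2) fell with the mutation, where 7.14% of all genes tested were called as lower. The 8 markers summed to 74078 to 87214 CPM for WT Ctr and 55966 to 60059 CPM for P635L Ctr. Their part in the junction results was not tested.

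The splicing tables were searched for exon choices in the junction genes. To count as changed, an event needed 10 or more junction reads per library on average in each group, an rMATS FDR under 0.05 and a shift in inclusion of 0.1 or more. By this rule 0 of 23 listed events in 9 of the genes changed in P635L Ctr against WT Ctr, where 2.52% of all events with enough reads were called. In P635L Tnpo3 against WT Ctr 0 of 28 were called, beside 2.12% of all events, and in WT Tnpo3 against WT Ctr 0 of 24, beside 0.941%. Enough reads were present for 21, 26 and 22 of these events. P635L Tnpo3 was compared with P635L Ctr by an edgeR model of junction counts over the events held in all 3 tables. It called 0 of 19 events of the junction genes, beside 0.0276% of all events. An edgeR unadjusted p was under 0.05 for 1 of the 19, beside 1534 of all 25400 events tested. In P635L Ctr against WT Ctr it was also 1 of the 19, beside 1877 of 25400. Between P635L Tnpo3 and either WT group the model also called 0 of the 19, beside 0.0236% of all events in each. That model called 37 events in P635L Ctr against WT Ctr where rMATS called 877, so its counts of 0 carry little weight. In the 3 rMATS comparisons 1 member event in all had an FDR under 0.05, a Dsc2 exon with fewer than 10 reads per library on average. Most of the listed events were exons that nearly all transcripts held, such as a 178-base exon of Pkp2 with an inclusion of at least 0.989 in every library.

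None of the listed events lay in Vcl. The following 4 events had intermediate inclusion, and those of Dsp and Dsc2 and the Tjp1 donor were picked after their values were seen. Dsp has a long exon with 2 donor sites. The outer donor keeps a 2295-base exon, which holds most of the rod of desmoplakin I, and the inner donor ends the exon after 498 bases and leaves out 1797 bases, as in the shorter desmoplakin II. The inner donor is shown with 30 bases on each side, from GENCODE M21 (build GRCm38, chr13:38191829-38191888, plus strand), matched to the event by the exon lengths; the capitals are the first 6 bases after the inner donor, which the long form keeps as coding sequence.
Dsp inner donor: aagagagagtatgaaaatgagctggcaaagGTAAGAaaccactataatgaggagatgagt

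Inclusion of the long form was 0.764, 0.813, 0.765 and 0.817 at the 4 listed positions of WT Ctr, 0.839, 0.842, 0.823 and 0.821 in WT Tnpo3, 0.759, 0.822, 0.746 and 0.783 in P635L Ctr, and 0.794, 0.893, 0.813 and 0.855 in P635L Tnpo3. Both P635L groups overlapped WT Ctr, and WT Tnpo3 lay just above WT Ctr. The means were 0.790 ± 0.0292, 0.831 ± 0.0108, 0.778 ± 0.0334 and 0.839 ± 0.0442 (SD, n = 4 each). The largest difference between groups was 0.061, between P635L Tnpo3 and P635L Ctr (exact permutation p = 0.0857, two-sided; edgeR adjusted p = 0.848). The rMATS FDR for WT Tnpo3 against WT Ctr was 0.787, while the exact permutation p was 0.0286. Reads at this site per 1000 gene counts of Dsp were 38.3 in WT Ctr, 23.8 in WT Tnpo3, 18.8 in P635L Ctr and 17.1 in P635L Tnpo3. Within WT Ctr the reads at the site spanned 157 to 1559, a 9.93-fold range, while the Dsp gene counts spanned 2.51-fold.

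Tjp1 has 2 such events. One is a skipped exon of 240 bases, which codes for the alpha motif of ZO-1. The other is an exon whose outer donor adds 39 bases, a whole number of codons. They are shown because both add coding sequence in frame, from GENCODE M21 (build GRCm38, minus strand, chr7:65314093-65314332 and chr7:65299670-65299813), matched by exon length; in the second, the capitals mark the 39 bases between the donors.
Tjp1 skipped exon: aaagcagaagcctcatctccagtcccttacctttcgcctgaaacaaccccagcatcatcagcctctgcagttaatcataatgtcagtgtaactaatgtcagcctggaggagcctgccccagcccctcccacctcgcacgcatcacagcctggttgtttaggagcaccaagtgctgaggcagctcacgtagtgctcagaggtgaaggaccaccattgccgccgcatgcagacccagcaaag
Tjp1 exon with 2 donors: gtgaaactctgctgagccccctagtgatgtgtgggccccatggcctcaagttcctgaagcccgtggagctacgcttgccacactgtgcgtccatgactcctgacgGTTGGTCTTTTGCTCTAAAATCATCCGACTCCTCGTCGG

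Inclusion of the 240-base exon was 0 to 0.278 in WT Ctr, 0.154 to 0.556 in WT Tnpo3, 0 to 0.176 in P635L Ctr and 0.0910 to 0.222 in P635L Tnpo3. The form without the exon was thus the commoner in 15 of the 16 libraries, and all groups overlapped. Means were 0.148 ± 0.137, 0.283 ± 0.184, 0.110 ± 0.0779 and 0.177 ± 0.0613 (SD, n = 4 each), on only 2 to 44 junction reads per library, so a difference of 0.1 was not detectable. The form with the 39 added bases made up 0.714 ± 0.0888 in WT Ctr, 0.814 ± 0.0824 in WT Tnpo3, 0.775 ± 0.0669 in P635L Ctr and 0.805 ± 0.125 in P635L Tnpo3 (SD, n = 4 each), on 41 to 249 reads per library. Its lowest rMATS FDR was 0.350, in WT Tnpo3 against WT Ctr.

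Dsc2 has a skipped exon of 46 bases, not a whole number of codons, near the end of the gene, where the known a and b forms of desmocollin differ in their tails. Its inclusion was 0.608 ± 0.123 in WT Ctr, 0.687 ± 0.137 in WT Tnpo3, 0.703 ± 0.0731 in P635L Ctr and 0.632 ± 0.172 in P635L Tnpo3 (SD, n = 4 each). The groups overlapped, and the mutation left this exon with an rMATS FDR of 0.621 while the gene count of Dsc2 fell. A mutually exclusive pair that involves the same 178-base exon is listed for Pkp2. Which exon of the pair its inclusion level counts was not settled here, so the level cannot be read as that of the 178-base exon. The listed value was 0.229 ± 0.00574 in P635L Ctr and 0.174 ± 0.0276 in P635L Tnpo3 (SD, n = 4 each). These 2 groups did not overlap (exact permutation p = 0.0286, two-sided), the difference of -0.0552 was under the 0.1 that the call rule asks for, and the junction model gave an edgeR adjusted p of 0.863.

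**Figure D5:**
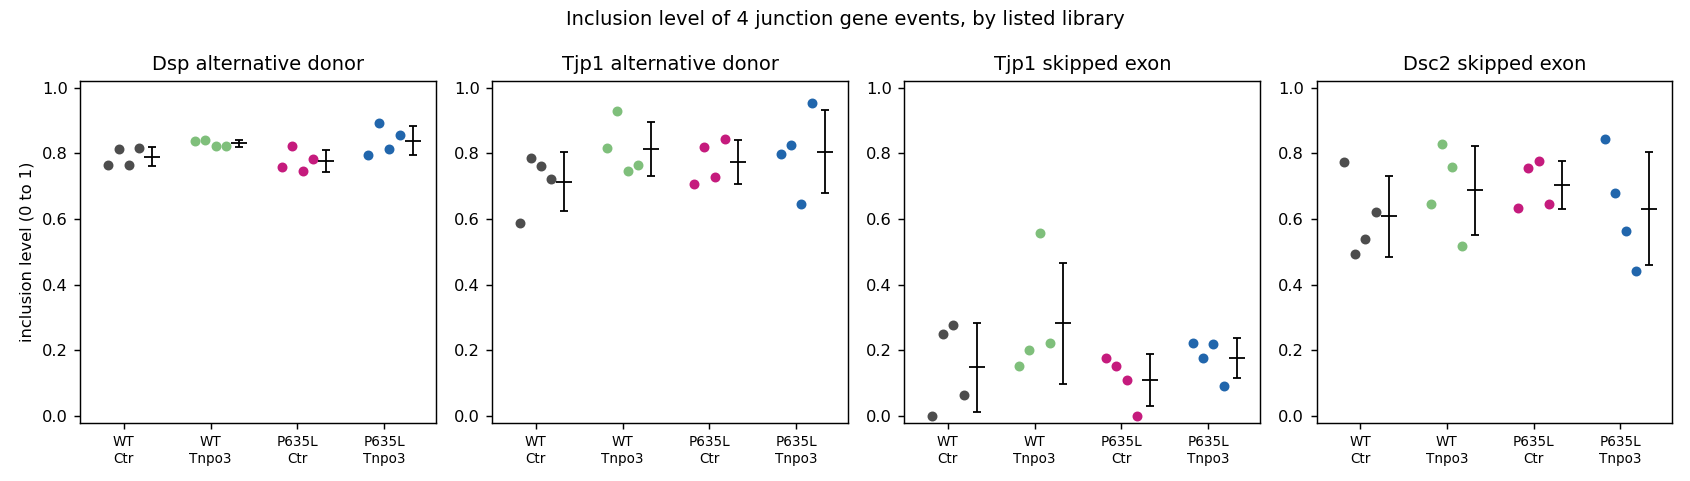
Inclusion level (0 to 1) of the Dsp alternative donor, the Tjp1 alternative donor, the 240-base Tjp1 exon and the 46-base Dsc2 exon at each listed library position, by group; the mark and bar at the right of each group are the mean and SD of 4 libraries. The Dsp long form stays between 0.746 and 0.893 in all 16 libraries, while the Tjp1 exon ranges from 0 to 0.556.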

How the data were processed

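Gene counts deposited by the authors were made with featureCounts 2.0.6 after alignment with STAR 2.7.9a to GRCm39, per the submitters' processing notes. The authors' deposited DESeq2 tables give log2 fold changes and adjusted p-values for 3 groups against WT Ctr. Their sign was WT Ctr over the other group, and it was turned here. The deposited rMATS tables, per the file headers, give junction read counts, inclusion levels as a fraction from 0 to 1, p-values, FDR and inclusion differences as a signed score (WT Ctr minus the other group). They do not state the order of libraries, so these are called by listed position. Gene models and sequences came from GENCODE M21 (GRCm38), which is not the build of the files, so exons were matched by length. The members and gene lists were chosen with earlier results of these data known.

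In R 4.3.3, counts were tested with edgeR 4.0.16 (robust quasi-likelihood, TMM factors, filterByExpr, 1 mean per group over all 16 libraries, 12 residual degrees of freedom, two-sided). P-values were adjusted by Benjamini-Hochberg over 18662 genes, with a threshold of 0.05. CPM values use TMM-scaled library sizes. Junction reads of events held in all 3 tables were tested with edgeR, with a term per library. DESeq2 1.42.0 and other alternatives are given in the closing section. Both edgeR scripts were tested on simulated data. Named genes outside the members are up to 3 called genes per list and comparison, by size of change, and others only where they complete a count. Library totals ran from 28493249 to 85922669 counts. Intervals are 95% intervals of the fitted fold change. The labels give 1 mouse per library. The labels do not tie a replicate number to a shared animal, litter or day, so numbers were not used as pairs.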

Additional observations from a re-analysis of the deposited data

Results flagged for a closer look

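Dsg2 in P635L Tnpo3 replicate 4 was at 36.2 CPM, while the other 3 libraries of its group lay between 49.3 and 51.2 CPM. Inclusion of the 240-base Tjp1 exon at listed position 3 of WT Tnpo3 was 0.556, against 0.154 to 0.222 at the other 3 positions, on 14 junction reads. Each stood far from the rest of its group relative to the group's range, by a test that flags about 1 in 20 groups by chance; 60 groups of 4 values were examined.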

How the results depend on the processing

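Over 27 alternatives per comparison (26 for the interaction), the Pkp2 calls and the Dsc2 call held throughout, while the Dsp and Tjp1 calls did not. Of 1610 single-gene results under alternatives 1476 kept direction and side of the threshold, 45 lost a call, 45 gained one and 44 turned sign; of 212 counts, 161 stayed within 1.5 times the reported one. None of the values that turned sign was called, and the cause was not tested. For P635L Ctr against WT Ctr the count of 3 ran from 2 to 4.

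In P635L Tnpo3 against P635L Ctr the count of 1 became 2 without the 3 libraries rich in ENSMUSG00000119584 and with a transcript length covariate (Cdh2 added), and 3 with only the groups compared (Cdh2 and Ctnna1 added). In P635L Tnpo3 against WT Ctr the count of 1 became 0 at an adjusted p under 0.01, with upper-quartile factors, with no filter on low counts, with the replicate block, without the 3 rich libraries, without the 3 libraries with high Xist, with only the groups compared and with ENSMUSG00000119584 removed before scaling. It became 2 with DESeq2 and with the length covariate (Vcl added), and ran from 0 to 2 when 1 library was left out. In P635L Tnpo3 against WT Tnpo3 the count of 1 became 0 at an adjusted p under 0.01 and without the libraries with high Xist, 2 with no filter, with only the groups compared and with that gene removed, and 5 with DESeq2, without the rich libraries and with the length covariate. It ran from 0 to 5 when 1 library was left out. For the interaction the count of 0 became 1 without the rich libraries (Cdh2) and 1 with the length covariate (Pkp2), and ran from 0 to 1 when 1 library was left out.

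Without the rich libraries the log2 fold changes that turned sign were, for P635L Ctr against WT Ctr, Dsg2 at 0.049, Ctnna3 at 0.19 and Tjp1 at 0.058; for WT Tnpo3 against WT Ctr, Dsp at 0.36, Ctnna3 at 0.20 and Vcl at 0.27; for P635L Tnpo3 against WT Tnpo3, Pkp2 at -0.052; and for the interaction, Vcl at -0.50. Without the libraries with high Xist they were Dsg2 at 0.11 (P635L Ctr against WT Ctr), Pkp2 at 0.039 (WT Tnpo3 against WT Ctr) and Pkp2 at -0.090 (P635L Tnpo3 against WT Tnpo3). Pkp2 in P635L Tnpo3 against WT Ctr was 0.013 with upper-quartile factors and 0.0081 with no filter. In the interaction Vcl was -0.017 with no filter and -0.018 with that gene removed, and Dsp was 0.012 with the length covariate.

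Leaving out 1 library gave these ranges where a sign turned. For P635L Ctr against WT Ctr, Dsg2 ran from -0.15 to 0.075 and Jup from -0.054 to 0.067. For P635L Tnpo3 against WT Ctr, Pkp2 ran from -0.090 to 0.031. For WT Tnpo3 against WT Ctr, Dsp ran from -0.22 to 0.11, Pkp2 from -0.20 to 0.016, Jup from -0.064 to 0.13, Ctnna3 from -0.31 to 0.061 and Vcl from -0.51 to 0.039. For P635L Tnpo3 against WT Tnpo3, Pkp2 ran from -0.054 to 0.16. For the interaction, Dsp ran from -0.26 to 0.064 and Vcl from -0.27 to 0.28.

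Of 24 same-numbered pairs of libraries 6 had deviations correlated over 0.1, among them 3 of the 4 between the WT groups (0.29, 0.47 and 0.65, and 0.079 for replicate 1), and 6 of 16 libraries correlated best with their own number. With the replicate block the count for P635L Ctr against WT Ctr was 2 (Pkp2 and Dsc2), and Dsp had edgeR adjusted p values of 0.0612 there and 0.0644 in P635L Tnpo3 against WT Ctr. For the splicing events alone, a block could not be fitted. No paired analysis was possible because, for those events, the tables do not state library order. The event counts were 0 in all 51 alternatives. The length covariate and the removal of that gene were chosen after seeing the data. Junction reads limit the events: the 240-base Tjp1 exon rested on 2 to 44 reads per library.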
